A study of Mus musculus with 2 samples.

Results

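The members are the mature microRNA names that begin with miR-297, miR-466, miR-467 or miR-669, with any letter and either arm. The rule matched 80 of 1909 names (6 of miR-297, 31 of miR-466, 13 of miR-467 and 30 of miR-669). Of these, 65 had reads, and 15 had 0 counts in both libraries. Names that carried identical counts in both libraries were taken once, which left 52 distinct detected members, and 19 of them (28 names) reached 50 counts in at least 1 library.

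Most microRNAs are cut from a hairpin in a longer transcript, first by Drosha in the nucleus and then by Dicer, and either the 5p or the 3p arm can be loaded onto Argonaute to repress messenger RNAs that match its seed, bases 2 to 8. In mouse and rat, a tandem array of such hairpins lies in an intron of Sfmbt2, a Polycomb-related gene that is imprinted and transcribed from the paternal allele in early embryos and extraembryonic tissue. The array is known from embryonic stem cells and placenta, and its loss impairs placental growth. Among its members, miR-467a has been described as glucose-induced in endothelial cells, where it silences thrombospondin-1, an inhibitor of vessel growth.

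The study sequenced small RNA of vascular smooth muscle cells, isolated from the thoracic aorta of male mice that were 10 to 12 weeks old and cultured in DMEM/F-12 medium with antibiotics and 10% serum from fetal calves. The diabetic mice were db/db (BKS.Cg-m+/+Leprdb/J), which lack a working leptin receptor, and the controls were db/+ (Lepr+/-). There was 1 library per genotype, called control and diabetic below, so every difference is between 2 libraries and no test of genotype was possible. The sources used here do not say how many mice each culture came from.

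The control library held 25915732 microRNA counts and the diabetic library 24295112. Levels are CPM (counts per 1e6 microRNA counts of that library), and ratios are db/db over db/+ with an exact conditional (Clopper-Pearson) 95% interval. Reads carry no molecular identifiers, so these intervals cover counting error only. Of 4 smooth muscle arms of miR-143 and miR-145a, 4 were detected, with summed levels of 1656 (control) and 1567 CPM (diabetic). Both endothelial arms of miR-126a were detected, summing to 0.270 and 2.92 CPM. Blood markers summed to 0.695 and 0.6997 CPM (3 of 6 detected, with miR-142a-3p, miR-144-3p and miR-223-3p at 0). Striated muscle markers summed to 0.232 and 0.165 CPM (2 of 4 detected, with miR-133b-3p and miR-208a-3p at 0), but that list leaves out a pair of abundant muscle microRNAs, added after their values were seen, miR-206-3p at 2473 and 2764 CPM and miR-1a-3p at 35.5 and 68.5 CPM. Names of the miR-290 to miR-295 cluster, which marks embryonic stem cells and trophoblast, summed to 0.424 and 0.988 CPM (8 of 18 detected). The part of these differences between the libraries in the results below was not tested.

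In GENCODE M21 on GRCm38 (mm10), the 4 name families have 81 hairpin genes, and 71 of them lie on the plus strand of Sfmbt2, from 10466663 to 10518279 on chromosome 2. They fill 51.6 kb of intron 11 of the Sfmbt2 transcript that begins at 10372436, an intron of 62.5 kb, with a median spacing of 298.5 bases between neighbouring starts. Mir669a has 12 copies there, Mir467a 10 and Mir466b 8. Only 2 of the 7 annotated Sfmbt2 transcripts span the hairpins, and both begin at the downstream start site, at 10372436 and 10372450.

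Because the hairpins share that intron, the window around this start is shown, from 250 bases before to 50 bases after it. It was taken from RefSeq (GRCm38.p6, chr2:10372186-10372485, plus strand), and capitals mark GGGCGG, the GC box, searched on both strands as GGGCGG and CCGCCC.
Sfmbt2 start window: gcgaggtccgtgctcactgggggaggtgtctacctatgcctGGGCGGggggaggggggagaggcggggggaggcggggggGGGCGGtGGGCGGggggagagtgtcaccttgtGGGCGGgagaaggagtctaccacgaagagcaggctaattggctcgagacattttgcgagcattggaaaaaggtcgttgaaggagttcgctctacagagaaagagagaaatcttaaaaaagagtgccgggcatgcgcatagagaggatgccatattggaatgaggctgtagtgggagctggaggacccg
The motif occurred 4 times, and 35.7% of 32851 windows of the same length held it at least once. The window held 16 CG dinucleotides against a median of 7 over all windows, and 33.0% of windows held as many.

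The other 10 hairpin genes lie outside Sfmbt2, on chromosomes 3, 5, 7, 9, 10, 11 and 13. For 9 member names every matched hairpin was one of these, and few or no reads fell on them. Reads were found for 3 of the 9, with at most 38 counts in a library, and none of the 9 reached the 50-count floor. Mature sequences matched 8 member names in RefSeq (GRCm38.p6), all of them dispersed copies. They are shown because they carry the names of the cluster families, yet had few or no reads. Capitals mark the seed.
miR-466i-3p (chr13:17747552-17747573, plus strand): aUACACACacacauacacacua
miR-466j (chr10:60960802-60960824, plus strand): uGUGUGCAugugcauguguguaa
miR-466k (chr3:85467396-85467418, plus strand): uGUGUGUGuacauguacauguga
miR-466q (chr3:28419988-28420007, plus strand): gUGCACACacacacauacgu
miR-467f (chr11:69635419-69635439, minus strand): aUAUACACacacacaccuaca
miR-467g (chr5:34732872-34732892, minus strand): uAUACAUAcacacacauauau
miR-467h (chr9:115381898-115381919, plus strand): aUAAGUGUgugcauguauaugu
miR-669n (chr3:115979905-115979924, plus strand): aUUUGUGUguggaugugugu

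These 8 had 8 different seeds, and each held an unbroken run of alternating U and G or A and C, from 7 bases in miR-466j and miR-467h to 12 in miR-466q and miR-467f. In the annotation, miR-466q lies within Tnik on the same strand. The span of a gene on the opposite strand holds miR-466i-3p (Cdk13), miR-467f (Fxr2), miR-467g (Grk4), miR-669n (Slc30a7) and miR-466k (Gm37240). None of these overlaps an annotated exon of its gene, and miR-466j and miR-467h lie in no other annotated gene. There were 11 control and 14 diabetic counts for miR-466i-3p (ratio 1.36, 0.573 to 3.30) and 3 and 1 for miR-466j. The opposite arm miR-466i-5p had 38 and 21 counts (0.589, 0.329 to 1.03). All intervals of these 3 included 1. The remaining 6 had 0 counts in both libraries, which allows up to 0.116 CPM in the control and 0.123 CPM in the diabetic library.

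A single mature arm, miR-669c-5p, supplied most of the reads of the cluster. It had 26553 control counts (1025 CPM) and 25929 diabetic counts (1067 CPM), ranking 34th of 881 and 31st of 833 detected names. Its ratio was 1.04 (1.02 to 1.06), and its only hairpin gene lies at 10509296 to 10509404 on chromosome 2, in the downstream part of the array. It held 79.7% (95% binomial interval, Clopper-Pearson, 79.25 to 80.1) of the cluster's 33322 control counts and 87.7% (87.3 to 88.1) of its 29570 diabetic counts. That share needs no scaling between libraries. Its partner miR-669c-3p had 1 count in each library.

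The remaining 51 distinct members together were lower in the diabetic library. They summed to 6769 control counts (261 CPM) and 3641 diabetic counts (149.9 CPM), a ratio of 0.574 (0.551 to 0.597). With miR-669c-5p included, the sum was 1286 and 1217 CPM, a ratio of 0.947 (0.932 to 0.962), and its side of 1 depended on the scaling (1.01 with the TMM factors of edgeR, a scaling that assumes that most microRNAs do not differ).

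**Figure D1:**
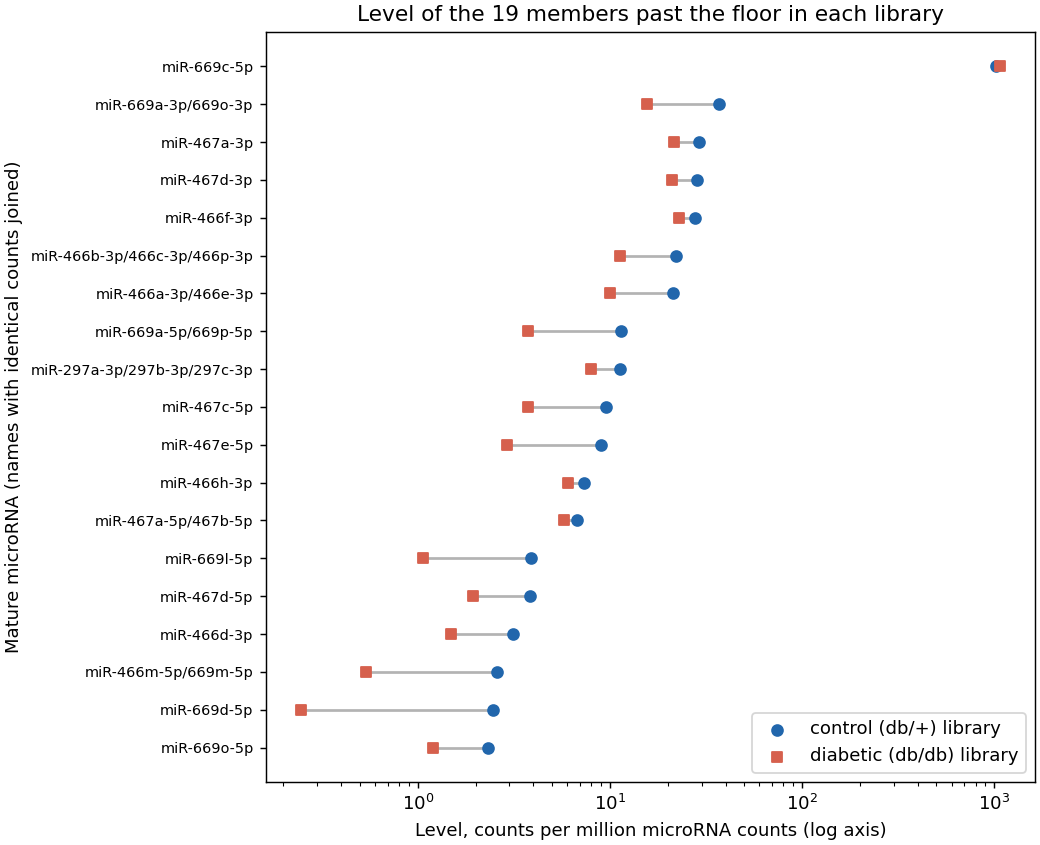
Level of the 19 distinct members with at least 50 counts in a library, in CPM on a log axis, with circles for the db/+ library and squares for the db/db library (1 library each, no error bars). The db/db square lies left of the db/+ circle for 18 members, and miR-669c-5p stands apart at 1025 and 1067 CPM.

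Of the 19 members past the floor, 9 had a ratio of at most 0.5 (12.8% of 343 distinct microRNAs did) and 0 a ratio of at least 2 (4.66%). Ratios lay below 1 in 18 of 19 (55.7%), and the counting interval lay below 1 in 16 (42.6%). The median log2 ratio, with 0.5 counts added, was -0.97, against -0.12 over the 343. All 19 passed the floor in the control library and 6 of them only there, so the counts of those 6 were lower in the diabetic library through the floor itself. Among the 13 with at least 50 counts in each library, 5 had a ratio of at most 0.5 (8.31% of 301) and 12 lay below 1 (53.8%), with a median of -0.50 against -0.08. With the TMM factors of edgeR 7 of the 19 were at least 2-fold lower, and with each name counted separately 13 of 28. The shares over all microRNAs were not counted under these settings.

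Apart from miR-669c-5p, the members past the floor had fewer than 1000 counts in each library. Among microRNAs with at least 50 and fewer than 1000 counts in their higher library, 9 of 18 members had a ratio of at most 0.5 (16.4% of 220 microRNAs) and 18 of 18 lay below 1 (61.8%). Their median log2 ratio was -1.02, against -0.21 over the 220. Of these 18, 12 had at least 50 counts in each library, and of the 12, 5 were at least 2-fold lower (9.55% of 178), with a median of -0.73 against -0.15. Hairpin GC content was lower in the members, with a median of 38.3% (33.0 to 42.4) against 50.9% in the other microRNAs past the floor. With a linear trend of the log2 ratio on hairpin GC removed, the median of the 19 was -0.80 (-0.09 over all) and 7 were at least 2-fold lower (11.3% of 328).

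**Figure D2:**
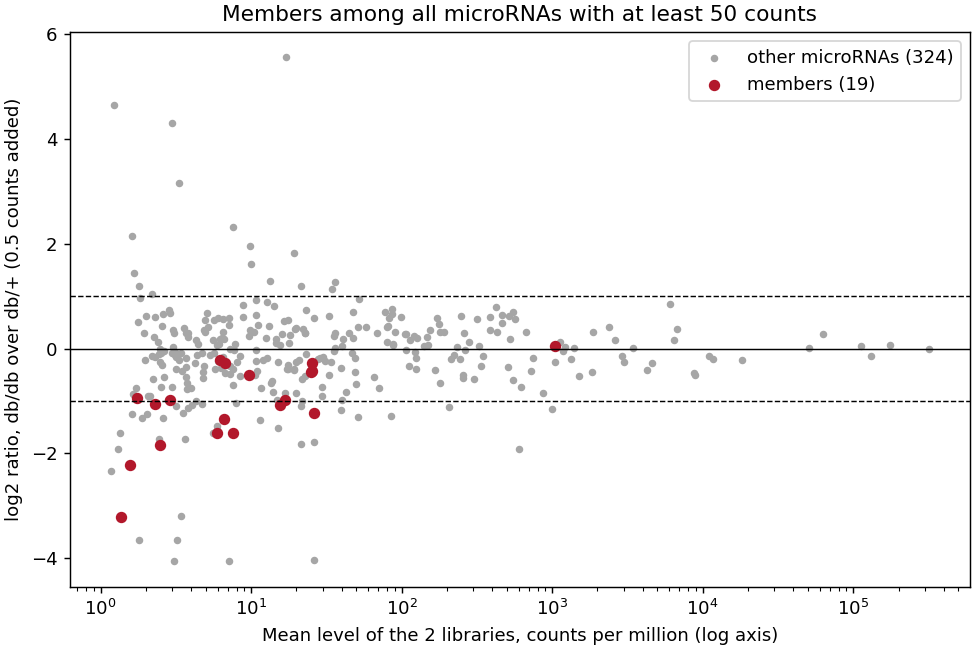
Log2 ratio of db/db over db/+ (0.5 counts added) against the mean level of the 2 libraries in CPM on a log axis, with 1 point per distinct microRNA that reached 50 counts. The 19 members are the larger red points, of which 18 lie below the line at 0, and dashed lines mark 2-fold differences.

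The miR-669 family was divided between the abundant miR-669c-5p and the rest. Its sum had a ratio of 1.0001 (0.983 to 1.02), while without miR-669c-5p it had 1777 and 631 counts and a ratio of 0.379 (0.345 to 0.415). The most abundant of the rest was the shared row of miR-669a-3p and miR-669o-3p, with 954 control counts (36.8 CPM) and 379 diabetic counts (15.6 CPM), a ratio of 0.424 (0.375 to 0.478). The opposite arm, shared by miR-669a-5p and miR-669p-5p, stood at 11.5 and 3.75 CPM, a ratio of 0.327 (0.256 to 0.415). Both arms of the multi-copy miR-669a were thus lower in the diabetic library by more than 2-fold.

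Less abundant miR-669 names held the 3 lowest ratios past the floor. For miR-669d-5p 64 control counts (2.47 CPM) faced 6 diabetic counts (0.247 CPM), a ratio of 0.10 (0.0354 to 0.230). A row shared by miR-669m-5p and miR-466m-5p had 67 and 13 counts and a ratio of 0.207 (0.105 to 0.378). For miR-669l-5p the counts were 101 and 26, and the ratio was 0.275 (0.171 to 0.426). The member closest to the floor was miR-669o-5p (60 and 29 counts), which had a ratio of 0.516 (0.319 to 0.816). All 4 of these were below 50 counts in the diabetic library.

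The miR-466 family was lower in the diabetic library as a sum, with 2434 control and 1401 diabetic counts and a ratio of 0.614 (0.575 to 0.656). Its abundant members were a pair of shared rows with ratios near 0.5 and 2 other members with ratios near 0.83. The row of miR-466b-3p, miR-466c-3p and miR-466p-3p had 574 and 274 counts (22.1 and 11.3 CPM), a ratio of 0.509 (0.439 to 0.589). The row of miR-466a-3p and miR-466e-3p had 550 and 244 counts (21.2 and 10.04 CPM), a ratio of 0.473 (0.405 to 0.551).

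A smaller difference was measured for miR-466f-3p, the most abundant miR-466 name, at 717 and 557 counts (27.7 and 22.9 CPM), its ratio being 0.829 (0.740 to 0.927). It has 3 hairpins in Sfmbt2 and another on chromosome 13. The single-hairpin miR-466h-3p had 189 and 147 counts and a ratio of 0.830 (0.664 to 1.03), an interval that includes 1. For miR-466d-3p the counts were 81 and 36, and the ratio was 0.474 (0.311 to 0.710).

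The miR-467 family summed to 2303 control and 1425 diabetic counts, a ratio of 0.660 (0.617 to 0.705). Its abundant 3p arms were near each other, with 754 and 526 counts for miR-467a-3p (29.1 and 21.7 CPM, ratio 0.744, 0.664 to 0.833) and 740 and 512 for miR-467d-3p (28.6 and 21.1 CPM, ratio 0.738, 0.658 to 0.827). Whether these names share reads was not tested. The 5p row of miR-467a and miR-467b had 174 and 140 counts and a ratio of 0.858 (0.682 to 1.08), so its interval included 1. For miR-467a the ratio thus lay below 1 by more than the counting error on the 3p arm only. The description of miR-467a as glucose-induced is from endothelial cells, and an effect of glucose was not tested here.

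The other 5p arms of the miR-467 family differed more. For miR-467c-5p there were 247 and 91 counts (9.53 and 3.75 CPM), a ratio of 0.393 (0.306 to 0.502). For miR-467e-5p there were 233 and 71 counts (8.99 and 2.92 CPM), a ratio of 0.325 (0.246 to 0.426). For miR-467d-5p there were 99 and 47 counts, a ratio of 0.506 (0.350 to 0.724). Past the floor, the ratios of this family thus ran from 0.325 to 0.858, and the intervals of miR-467e-5p and miR-467a-3p lay apart.

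The miR-297 family was represented past the floor by a single row, shared by the 3p arms of miR-297a, miR-297b and miR-297c. It had 292 control counts (11.3 CPM) and 194 diabetic counts (7.99 CPM), a ratio of 0.709 (0.588 to 0.853). Its 5p arms were rare. For miR-297a-5p there were 18 control counts and 0 diabetic counts, at least 5.62-fold lower against the limit of 3 counts that a count of 0 allows. Counts were 12 and 3 for miR-297b-5p and 2 and 0 for miR-297c-5p.

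**Figure D3:**
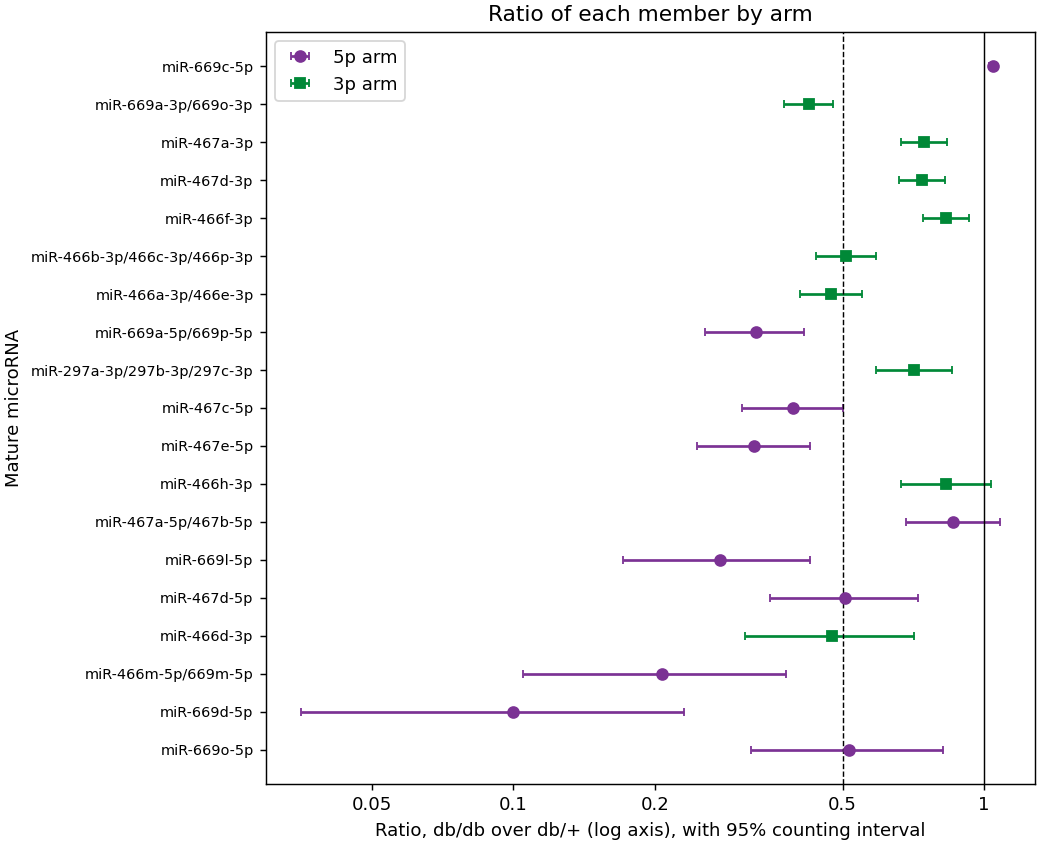
Ratio of db/db over db/+ on a log axis for the 19 members past the floor, from most (top) to least abundant, with 95% counting intervals and the arm as colour and shape (5p circles, 3p squares). The solid line marks a ratio of 1 and the dashed line 0.5. The 3p squares lie between 0.424 and 0.830, while the 5p circles run from 0.10 to 1.04.

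Ratios are given here by arm. Past the floor and without miR-669c-5p, the 9 members from 5p arms had a median log2 ratio of -1.61, and 6 of them were at least 2-fold lower (16.4% of 171 distinct 5p microRNAs). The 9 from 3p arms had a median of -0.50, and 3 were at least 2-fold lower (9.94% of 161 distinct 3p microRNAs). The medians over the 171 and the 161 were -0.08 and -0.14. However, 5 of the 9 from 5p arms and 1 of the 9 from 3p arms passed the floor only through the control library. With at least 50 counts in each library, 3 of 4 members from 5p arms (11.3% of 150) and 2 of 8 from 3p arms (5.71% of 140) were at least 2-fold lower. Their medians were -1.48 and -0.47, against -0.02 over the 150 and -0.13 over the 140. Among all detected members except miR-669c-5p, the 5p share of reads was 23.4% (22.4 to 24.4) of 6769 control counts and 16.6% (15.4 to 17.9) of 3641 diabetic counts. The sum of 5p arms had a ratio of 0.408 (0.371 to 0.448) and that of 3p arms 0.625 (0.597 to 0.654). Several 5p and 3p rows come from the same hairpins, and no test of the difference between arms was possible.

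Hairpin names with enough reads kept their preferred arm. Of 19 hairpin names whose 2 arms summed to 50 counts or more in each library, 19 kept their major arm, 14 the 3p and 5 the 5p. The 5p share was lower in the diabetic library for 13 and higher for 5. It differed by at least 10 percentage points for 1, miR-467e, with 83.2% (78.3 to 87.4) of 280 control counts and 69.6% (59.7 to 78.3) of 102 diabetic counts, intervals that just overlap. Intervals were apart for 1 of the 19, miR-297a, with 5.81% (3.48 to 9.02) of 310 control counts and 0% (0 to 1.88) of 194 diabetic counts. Below that depth the major arm differed in miR-466m, with 65.7% (55.6 to 74.8) of 102 control counts and 30.2% (17.2 to 46.1) of 43 diabetic counts on the 5p arm, and in miR-669m, with 61.5% (51.7 to 70.6) of 109 and 48.1% (28.7 to 68.1) of 27. Both have the same 5p row. In miR-466n the major arm differed the other way. Its 5p share was 47.4% (31.0 to 64.2) of 38 control counts and 61.5% (31.6 to 86.1) of 13 diabetic counts. These names, from miR-297a on, were chosen after their values were seen. Extremes were miR-669c with more than 99.9% of reads on the 5p arm and miR-466f with 0 of 717 and 0 of 557. Since several arms share their reads with other names, these shares are not independent of each other. The same counts over the hairpins of all microRNAs were not made, so these numbers have no background beside them.

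Position within the intron was read from the members with 1 hairpin gene. Past the floor there were 9 such members, and miR-669c-5p is one of them. Upstream, miR-669l-5p (10468971 to 10469068) and miR-467c-5p (10473931 to 10474027) had ratios of 0.275 and 0.393. Downstream, miR-467e-5p (10505721 to 10505807) had 0.325, and the 2 arms of the miR-467d hairpin (10507630 to 10507714) had 0.506 and 0.738. The miR-669c hairpin begins within 2 kb of miR-467d, yet miR-669c-5p had 1.04. Further on lay miR-466d-3p (10511967 to 10512062) with 0.474, miR-669o-5p (10514300 to 10514395) with 0.516 and miR-466h-3p (10514891 to 10514971) with 0.830. The interval of miR-669c-5p (1.02 to 1.06) lay apart from those of miR-467d-5p (0.350 to 0.724) and miR-467d-3p (0.658 to 0.827). That of miR-467e-5p (0.246 to 0.426) lay apart from miR-467d-3p but not from miR-467d-5p. The arms of miR-467d overlapped, as did miR-669l-5p with miR-467c-5p, and miR-466d-3p, miR-669o-5p and miR-466h-3p with each other. Whether miR-467d-3p shares reads with miR-467a-3p, which has 10 hairpin genes, was not tested, so its ratio may not be that of 1 hairpin.

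**Figure D4:**
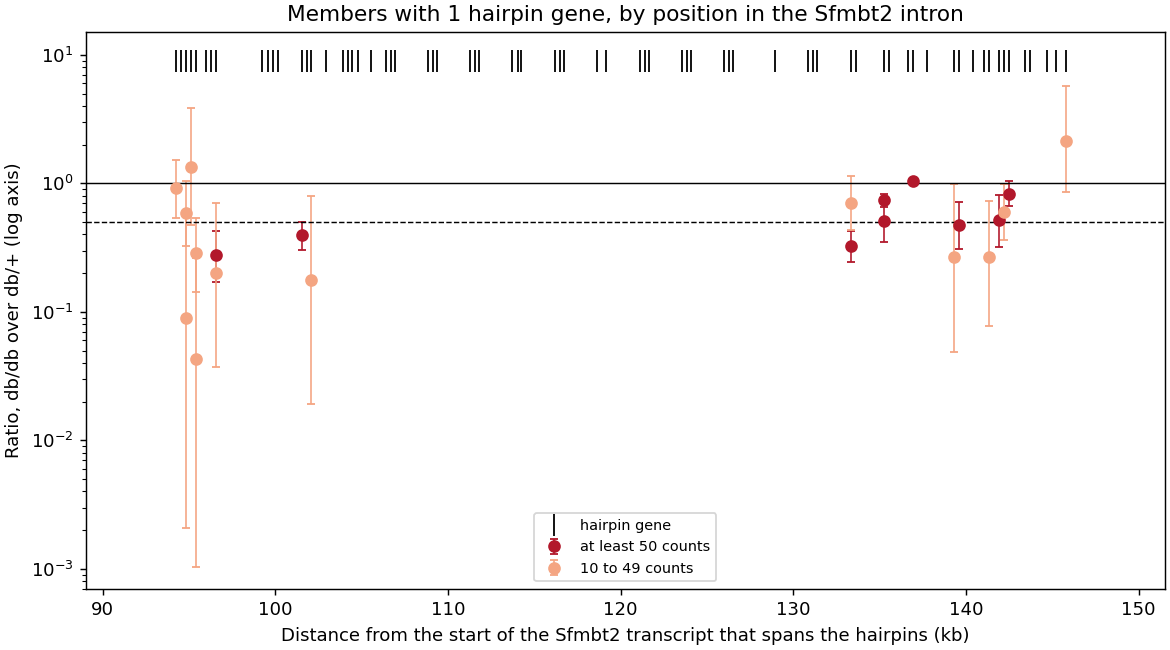
Ratio of db/db over db/+ on a log axis against distance in kb from the start of the Sfmbt2 transcript at 10372436, for members with 1 hairpin gene and reads in both libraries, with 95% counting intervals. Dark points reached 50 counts and pale points have 10 to 49 in their higher library, and ticks at the top are the 71 hairpin genes of the intron. Of the 9 dark points, 8 lie below the line at 1. The middle of the array has no point, since names there map to several hairpins, share a row with another name or have fewer than 10 counts.

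As sums, members with several hairpins and members with a single hairpin other than miR-669c-5p were both lower in the diabetic library. The 8 members past the floor with several hairpins, all in Sfmbt2, had a median log2 ratio of -1.16 and summed to a ratio of 0.5197 (0.490 to 0.551). The 8 with a single hairpin in Sfmbt2, without miR-669c-5p, had a median of -1.02 and summed to 0.585 (0.540 to 0.633). The median over all 343 distinct microRNAs past the floor was -0.12. Among the single-hairpin members, miR-669l-5p, miR-467d-5p, miR-466d-3p and miR-669o-5p passed the floor only in the control library. So did miR-669d-5p and the row of miR-466m-5p and miR-669m-5p among the others. Their diabetic counts were thus lower through the floor itself. The 2 rows with hairpins both in Sfmbt2 and elsewhere, miR-466f-3p and the 3p row of miR-297, summed to 0.794 (0.721 to 0.873).

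Below the floor, 37 names (33 distinct members) had reads, which summed to 576 control and 258 diabetic counts, a ratio of 0.478 (0.411 to 0.554). Ratios lay below 1 in 25 of the 33 (56.2% of 251 distinct count rows below the floor) and above 1 in 8, and each interval of those 8 included 1. With the floor at 10 counts, 22 of 40 members were at least 2-fold lower (15.6% of 519) and 1 at least 2-fold higher (7.71%). With no floor these were 29 of 52 (17.3% of 594) and 2 (10.1%). The 251, 519 and 594 are distinct count rows, in which unrelated microRNAs with equal low counts were joined. The 967 detected names gave 594 such rows, and the shares by name were not counted, so these backgrounds are a rough guide only. The nearest to the floor were miR-669b-5p with 48 and 13 counts (ratio 0.289, 0.144 to 0.542), miR-466g with 48 and 27 (0.600, 0.360 to 0.981) and miR-467e-3p with 47 and 31 (0.704, 0.432 to 1.13). All 65 detected names had reads in the control library and 57 in the diabetic library. Reads in the control library only were found for 8 of the 65 names, against 13.9% of 967 detected names, and reads in the diabetic library only for 0 of 65, against 8.89%. The share of names seen in the control library only was thus near that of all microRNAs.

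The Dlk1-Dio3 locus on chromosome 12, also an imprinted tandem array of microRNAs, had other values in the same libraries. Of its 61 distinct members past the floor, 1 was at least 2-fold lower (12.8% of 343 distinct microRNAs) and 1 at least 2-fold higher (4.66%). Ratios lay below 1 in 25 (55.7%) and above 1 in 36, with a median log2 ratio of 0.27 against -0.12 over the 343. In the range of at least 50 and fewer than 1000 counts, 22 of its 43 members had ratios below 1 (61.8% of 220). Their median was -0.03, against -0.21 over the 220 and -1.02 for the 18 members described here. Of those 18, 6 passed the floor only in the control library. The difference between the arrays could not be tested with 1 library per genotype.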

How the data were processed

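Small RNA of 1 db/+ and 1 db/db culture was sequenced. The authors' files hold, per the file headers, a raw read count and a TMM normalized read number for each mature microRNA. The normalized reads are whole numbers, so this deposited column was treated as a score and used only as an alternative scaling. Novoalign, edgeR and mm10 are listed, per the submitters' processing notes. Trimming, the catalogue of names and the handling of reads that match several names are not given in the sources used here.

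Rows with identical counts in both libraries were taken once, in the background as well, and once within each name family. Such rows can join names by coincidence when counts are low (miR-297c-5p and miR-466e-5p, at 2 and 0). This also holds for unrelated microRNAs in the background. Counts were divided by the column total. With 1 library per group no quasi-likelihood test could be fitted, so members were counted by a ratio of at most 0.5 or at least 2 with 50 counts in a library. Hairpins were looked up by name in GENCODE M21 (Mir466 for miR-466a and Mir297-1 for miR-297a).

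Every member past the floor is named, with the 3 nearest below it. Hairpins were named for a 5p share that differed by 10 points. Members, lists and rules were chosen with earlier results of these data known. Intervals were run on simulated counts that held counting error only, which checks their calculation and not variation between cultures. Python 3.11.15, scipy 1.17.1, edgeR 4.0.16 and DESeq2 1.42.0 were used. Alternatives covered scaling, the floor, identical counts, added counts and GC content.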

Additional observations from a re-analysis of the deposited data

How the results depend on the processing

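With miR-669c-5p included, the cluster sum lay at a ratio of 0.947 with column totals but above 1 with edgeR TMM (1.0058), DESeq2 size factors (1.0077), upper-quartile factors (1.0124) and deposited TMM reads (1.0058). It was 0.986 without the 10 most abundant microRNAs in the total, 0.901 with every name counted separately and 0.574 without miR-669c-5p. The miR-669 sum was 1.06 with edgeR TMM (1.0626), DESeq2 (1.0646) and deposited TMM reads (1.0626), 1.07 with upper-quartile factors (1.0696), 1.04 without the 10 most abundant (1.0417), 0.974 with every name separately and 0.379 without miR-669c-5p. Upper-quartile factors gave 0.657 for the miR-466 sum and 0.706 for the miR-467 sum, and every name separately gave 0.564 for miR-466. Scaling shifted all log2 ratios by 0.06 to 0.10.

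The median of the members stayed below 0 under each alternative run, between -1.10 with no floor and -0.50 with at least 50 counts in each library. With no floor it was -1.05 over 50 members when those at 0 in db/db were set to their limit of 3 counts. The row of miR-297c-5p and miR-466e-5p, and miR-466a-5p, had control counts below that limit and were left out. With at least 50 counts in each library, 5 of 13 members were at least 2-fold lower (8.31% of 301 microRNAs). At least 2-fold lower were 22 of 40 members at a floor of 10 counts (15.6% of 519 distinct count rows) and 29 of 52 with no floor (17.3% of 594). These rows join unrelated microRNAs with equal low counts, and shares by name were not counted. At least 2-fold higher were 1 (7.71%) and 2 (10.1%), since more members enter. Arm differences of 10 points numbered 8 at a floor of 10 counts, and they were not counted over all microRNAs. For single members, 90 alternative ratios stayed inside the counting interval, 5 left it, all of miR-669c-5p under other scalings (1.09 to 1.11), and 0 crossed 1 from an interval that excluded it. With the GC trend of the other microRNAs alone removed, the median was -0.91. Counts within 15% taken once, 50 counts in each library, the hairpin GC trend and leaving out miR-669c-5p from the median were chosen after the data were seen. Seed group sums and the trend on mature GC content were not run, since matched mature sequences covered 8 of 80 names. No paired analysis was possible because there was only 1 library of each genotype, and without either of them nothing could be compared.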
